A study of Mus musculus with 29 samples.

Results

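The Rfam miRNA precursor families of gonadal white adipose tissue (gWAT) were described in mice that differ in their risk of type 2 diabetes. The deposited small RNA table contains 5355 entries, and 192 of them carry the type precursor, each standing for a family of precursor hairpins in Rfam, a database that groups related RNAs by sequence and fold. The families were chosen by their raw counts, as those with a mean above 10 over the 29 libraries, which gave 89 of the 192. The other 103 precursor families had a mean of 10 or less. The mean counts are therefore given below as a description.

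All 29 mice were females of the obese NZO/HIBomDife strain and had received a high-fat diet, and the study took their gWAT at 10 weeks of age. The 15 diabetes-prone (DP) mice were classed by a risk score as likely to become hyperglycaemic later in life, and the 14 diabetes-resistant (DR) mice, the healthy controls, stay normoglycaemic for most of their life. DP and DR mice are genetically identical and ate the same diet, so the groups differ by a classification on phenotype and not by a treatment or an allele. The comparison addresses which small RNAs differ in fat before the disease is manifest. Each library is the gWAT of 1 mouse, as far as the labels say, and the p-values measure the spread between these libraries.

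A miRNA gene is transcribed into a long primary transcript, and Drosha trims it in the nucleus to a precursor hairpin. Dicer then cuts the hairpin in the cytoplasm into a duplex, of which 1 strand usually becomes the mature miRNA that guides Argonaute to its target mRNAs. Bases 2 to 8 of the mature miRNA, the seed, do most of the target recognition. mir-451, a family of red blood cells, is an exception, since Argonaute2 itself cuts its short hairpin. In a small RNA library, reads given to a precursor family need not be uncut precursors. They can be mature strands, their variants or loop fragments that match the family model, and the sources used here do not say how reads were shared between the mature, hairpin and precursor entries.

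The families on which the results turn are shown first by the most counted mature miRNA of each, with the seed in capitals. The sequences were taken from RefSeq (GRCm38.p6, the assembly that mm10 denotes), in which 70 of the 89 families had a mouse miRNA of the same number.
mir-221, miR-221-3p, chrX:19146307-19146329, minus strand: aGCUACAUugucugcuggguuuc
mir-132, miR-132-5p, chr11:75173686-75173707, plus strand: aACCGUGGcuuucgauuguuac
mir-21, miR-21a-5p, chr11:86584120-86584141, minus strand: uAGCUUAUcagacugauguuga
mir-223, miR-223-3p, chrX:96242884-96242905, plus strand: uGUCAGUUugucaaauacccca
mir-10, miR-10b-5p, chr2:74726074-74726096, plus strand: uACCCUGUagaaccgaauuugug
mir-126, miR-126a-3p, chr2:26591402-26591423, plus strand: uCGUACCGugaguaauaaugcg
mir-203, miR-203-3p, chr12:112130927-112130948, plus strand: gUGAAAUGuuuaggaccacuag
mir-204, miR-204-5p, chr19:22750610-22750631, plus strand: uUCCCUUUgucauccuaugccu
mir-193, miR-193b-3p, chr16:13449570-13449591, plus strand: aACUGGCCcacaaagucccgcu
mir-451, miR-451a, chr11:78073186-78073207, plus strand: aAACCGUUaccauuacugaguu
Each of these 10 miRNAs has a seed of its own, so no pair of the families shown shares one. By the annotation, Mir10b lies in an intron of the homeobox genes Hoxd3 and Hoxd4, Mir204 in an intron of the channel gene Trpm3, Mir126a in an exon of Egfl7, a gene of endothelial cells, and Mir21a in an exon of Vmp1. The loci of Mir221, Mir203 and Mir451a overlap no other annotated gene, where other miRNA genes were left out of the lookup.

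The hairpins from which such strands are cut are shown for 3 families, with the mature arms in capitals, because they illustrate what a precursor entry can collect reads from.
Mir221, chrX:19146294-19146388, minus strand: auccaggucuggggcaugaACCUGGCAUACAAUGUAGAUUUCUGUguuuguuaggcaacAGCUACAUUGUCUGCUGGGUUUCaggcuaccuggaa
Mir132, chr11:75173682-75173747, plus strand: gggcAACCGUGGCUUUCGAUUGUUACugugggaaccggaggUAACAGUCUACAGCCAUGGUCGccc
Mir451a, chr11:78073170-78073241, plus strand: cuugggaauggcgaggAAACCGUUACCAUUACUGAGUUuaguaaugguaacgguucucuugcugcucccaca
The Mir221 hairpin is 95 bases long and the Mir132 hairpin 66, and both carry a mature arm on either side of the loop. In the 72 bases of Mir451a the only annotated mature strand runs from base 17 to base 38, into what would be the loop.

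The precursor families took up 5.50% of the counts that name an RNA, against 51.4% for mature and 40.7% for hairpin miRNAs. A library held between 24416345 and 27513950 counts over all entries in DP and between 24266300 and 27662601 in DR mice. The 89 families took 5.49% ± 0.407 of the counts that name an RNA in DP libraries, against 5.52% ± 0.373 in DR libraries (SD over 15 and 14 mice). This difference of -0.0256 percentage points was smaller than the spread between mice (two-sided permutation test, p = 0.860), and the 2 ranges, 4.73% to 6.23% in DP and 5.03% to 6.27% in DR, lay largely over each other.

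The reads were unevenly spread over the families. mir-451 held 18.5% of the reads of all 89 families, mir-126 12.98%, mir-21 11.1%, mir-30 7.85% and let-7 5.88%. These 5 held 56.3% and the first 10, which also include mir-27, mir-23, mir-10, mir-26 and mir-24, held 80.4%. At the other end 33 families had a mean count of 100 or less. Just inside the limit of 10 stood mir-219 with a mean of 10.2 and MIR396 with 10.5, and just outside it mir-28 with 9.93 and MIR171_1 with 9.59. Of the 89 families, 81 had at least 1 read in every library. These shares describe where reads fell and are not divided by the length of a hairpin.

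**Figure D1:**
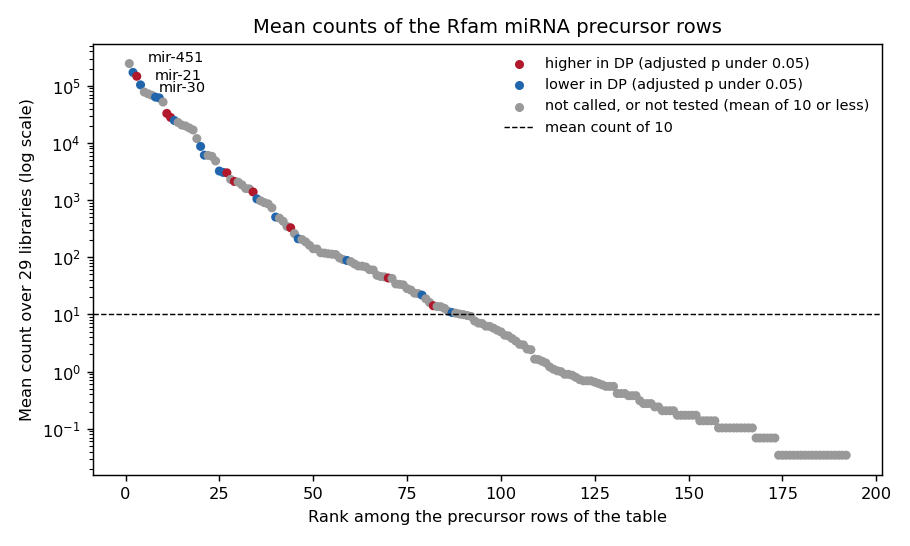
Mean raw count of each of the 192 precursor families over the 29 libraries (log axis) by rank, with the mean count of 10 as a dashed line. The 89 families above the line include 9 that were higher (red) and 15 that were lower (blue) in DP mice, and these stand at all levels of abundance.

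To compare the groups, all 1891 RNAs of the table with a mean count above 10 were fitted together with edgeR's quasi-likelihood test, after TMM scaling (a trimmed mean of log ratios between libraries) and with Benjamini-Hochberg adjustment over all 1891. An adjusted p under 0.05 is called a change here. Levels are given as CPM, counts per 1000000 counts of the library after TMM scaling, and every log2 fold change is DP over DR. Of the 89 families, 9 were higher in DP mice (10.1%) and 15 were lower (16.9%). Over all RNAs tested, 8.83% were higher and 7.3% lower, so the share of higher families was near the background and the share of lower ones above it. In total 24 families were called (27.0%), against 16.1% of all RNAs and 22.5% of the mature and hairpin miRNAs. The remaining 65 families did not pass the test. The median log2 fold change over the 89 families was -0.03, against -0.02 over all RNAs tested. The direction of the split depended on the scaling, since library totals gave 12 higher and 10 lower families, and a fit on the precursor families alone gave 17 higher and 10 lower. Over all 1891 RNAs, library totals gave 227 higher and 106 lower. Both of these scalings also moved the median of all RNAs they fitted, to 0.05 and 0.07. In bulk tissue, a change in the number of cells of a type and a change in RNA per cell cannot be told apart.

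**Figure D2:**
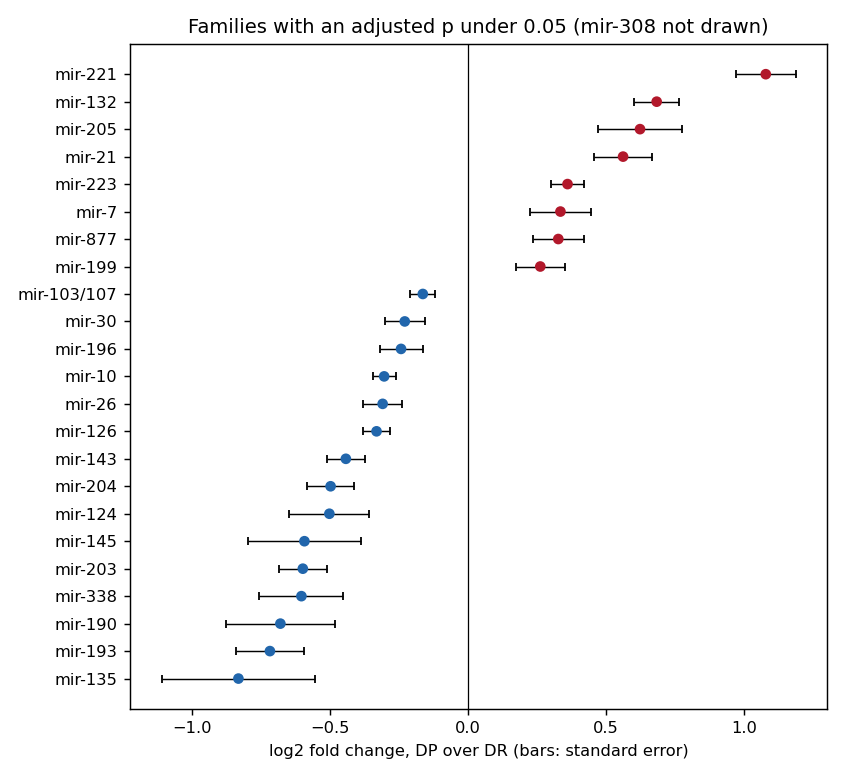
Log2 fold change, DP over DR, of 23 of the 24 families with an adjusted p under 0.05 from edgeR (points; bars show 1 standard error), with the highest at the top. mir-221 stands at 1.08 and mir-135 at -0.83, and mir-308, whose reads come almost wholly from 1 library, is not drawn.

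Families are grouped below by lists that were drawn up with earlier results of these data known. The lists therefore order the values and do not test a cell type or process. One such list holds families linked to myeloid cells and inflammation. Of the 6 measured families of that list, mir-221, mir-132, mir-21 and mir-223 rose, mir-146 and mir-155 did not pass, and none fell. The list median was a log2 fold change of 0.46, against -0.02 over all RNAs tested. mir-221, whose members restrain the cell-cycle inhibitor Cdkn1b, had a lowest, median and highest level of 1351, 1919 and 2125 CPM in DP libraries and of 549, 800 and 1307 CPM in DR libraries. Every DP library was thus above every DR library. Ranges without overlap, in either direction, were found for 1 of the 89 families and for 6 of the 1891 RNAs tested (0.317%). The log2 fold change was 1.08 ± 0.11 (SE, n = 15 and 14, edgeR adjusted p = 1.35e-07).

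mir-132, a family induced by the cAMP-responsive factor CREB, had 92.3, 105 and 129 CPM (lowest, median, highest) in DP libraries, against 54.0, 64.7 and 97.5 CPM in DR libraries. All 15 DP libraries were above the DR median and 12 of them above all DR libraries. The log2 fold change was 0.68 ± 0.08 (edgeR adjusted p = 7.07e-07).

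mir-21 belongs to the most counted families and is known for its induction in inflammation. It reached 4651, 7352 and 9851 CPM in DP libraries and 3458, 5029 and 6252 CPM in DR libraries. The groups overlapped, with 11 DP libraries above all DR libraries and 2 below the DR median (log2 fold change 0.56 ± 0.10, edgeR adjusted p = 0.000193).

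mir-223, a family of granulocytes and macrophages, had 109, 145 and 160 CPM in DP libraries and 91.2, 108 and 126 CPM in DR libraries. All 15 DP libraries were above the DR median (log2 fold change 0.36 ± 0.06, edgeR adjusted p = 4.91e-05). By contrast mir-155, which is induced in activated macrophages, averaged 36.8 ± 12.04 CPM in DP mice and 34.7 ± 7.81 CPM in DR mice (SD), a difference within the spread (log2 fold change 0.08 ± 0.16, edgeR adjusted p = 0.827). mir-146, part of the feedback on NF-κB signalling, averaged 520 ± 70.8 CPM in DP mice and 472 ± 58.0 CPM in DR mice (SD) and did not pass either (0.14 ± 0.07, edgeR adjusted p = 0.201). The 2 mature and 2 hairpin miRNAs tested under the number of mir-146 were, however, all called higher in DP mice. Among 3 mature miRNAs that mark leukocytes, miR-223-3p and miR-142a-3p were higher and the lymphocyte miR-150-5p was lower in DP mice. Their summed level ran between 3677 and 5767 CPM in DP and between 5106 and 8005 CPM in DR libraries. Nearly all of this sum was miR-150-5p, with medians of 4295 CPM in DP and 5971 CPM in DR libraries, while the medians of miR-223-3p (446 CPM in DP libraries and 318 CPM in DR libraries) and miR-142a-3p (77.1 CPM in DP libraries and 41.0 CPM in DR libraries) went the other way. The part of such cells in the changes above was not tested.

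**Figure D3:**
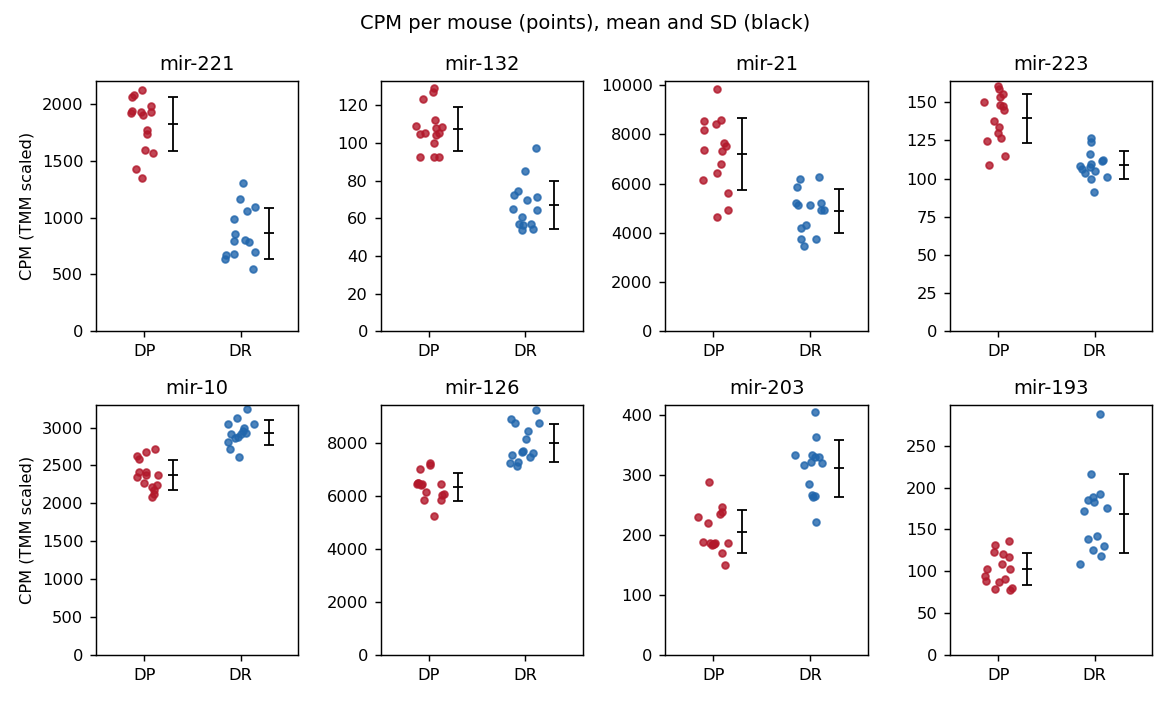
CPM after TMM scaling of 8 families in each mouse (points), DP left and DR right, with mean and SD in black; each axis starts at 0. The upper row holds families that were higher and the lower row families that were lower in DP mice, and only for mir-221 do the points of the groups not overlap.

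Another list, drawn up with the same knowledge, holds families linked to adipocytes and brown fat. Of the 9 measured families of that list, 6 fell in DP mice (mir-26, mir-30, mir-103/107, mir-193, mir-203 and mir-204), none rose, and mir-27, mir-365 and mir-378 did not pass. The list median was -0.38. mir-193, known for supporting brown adipocyte differentiation, had 78.1, 102 and 136 CPM in DP libraries and 109, 174 and 289 CPM in DR libraries. Every DP library was below the DR median, and 10 were below all DR libraries (log2 fold change -0.72 ± 0.12, edgeR adjusted p = 6.94e-05).

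mir-203, best known from the epidermis and counted here among families reported in fat, had 150, 187 and 288 CPM in DP libraries and 221, 320 and 404 CPM in DR libraries. All DP libraries were below the DR median (log2 fold change -0.60 ± 0.09, edgeR adjusted p = 1.05e-05).

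mir-204 promotes adipocyte over osteoblast fate by restraining Runx2. It had 15.0, 17.4 and 21.4 CPM in DP libraries and 17.8, 25.6 and 31.8 CPM in DR libraries, with all 15 DP libraries below the DR median (log2 fold change -0.50 ± 0.08, edgeR adjusted p = 6.13e-05). mir-26, induced as preadipocytes mature, had 1844, 2181 and 2896 CPM in DP libraries, against 2130, 2883 and 3343 CPM in DR libraries. In 14 of 15 DP libraries it was below the DR median (log2 fold change -0.31 ± 0.07, edgeR adjusted p = 0.00144).

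Smaller decreases were found for mir-30, a family that favours adipogenesis, and for mir-103/107, a family that dampens insulin sensitivity through caveolin-1. mir-30 had 3334, 3925 and 4821 CPM in DP libraries and 3463, 4813 and 5858 CPM in DR libraries (log2 fold change -0.23 ± 0.07, edgeR adjusted p = 0.0255). mir-103/107 had 283, 345 and 395 CPM in DP libraries, against 357, 380 and 409 CPM in DR libraries (-0.16 ± 0.05, edgeR adjusted p = 0.0109). Both calls were lost with library totals as the scaling, and that of mir-30 also without DR replicate 10 (-0.20, edgeR adjusted p = 0.0506). The ranges overlapped for both, mir-30 far more so, with 1 DP library below all DR libraries against 9 for mir-103/107.

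mir-378, which comes from an intron of the coactivator gene Ppargc1b, averaged 669 ± 221 CPM in DP mice and 870 ± 240 CPM in DR mice (SD) and did not pass (log2 fold change -0.38 ± 0.16, edgeR adjusted p = 0.120). mir-365, a neighbour of mir-193 in the genome, averaged 1.61 ± 0.838 CPM in DP mice and 2.44 ± 0.703 CPM in DR mice (-0.60 ± 0.32, edgeR adjusted p = 0.236). mir-27, which restrains adipogenesis, averaged 3120 ± 326 CPM in DP mice and 2894 ± 253 CPM in DR mice (0.11 ± 0.05, edgeR adjusted p = 0.195). Of 3 mature miRNAs that mark adipocytes here, miR-193b-3p and miR-378a-3p were lower in DP mice and miR-365-3p did not pass. Their summed level ran from 2944 to 4839 CPM in DP and from 3869 to 7148 CPM in DR libraries, and nearly all of it was miR-378a-3p, with medians of 3870 CPM in DP and 5018 CPM in DR libraries. The part of adipocyte number in the family changes was not tested.

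Families linked to vessels and to the Hox clusters were lower as well. mir-126, the family of endothelial cells that supports VEGF signalling, had 5258, 6445 and 7240 CPM in DP libraries, against 7140, 7700 and 9262 CPM in DR libraries. All 15 DP libraries were below the DR median and 13 below all DR libraries (log2 fold change -0.33 ± 0.05, edgeR adjusted p = 7.08e-06). mir-10, named for miRNAs encoded between Hox genes, had 2080, 2367 and 2719 CPM in DP libraries and 2616, 2923 and 3242 CPM in DR libraries. Again all DP libraries were below the DR median (-0.30 ± 0.04, edgeR adjusted p = 3.91e-06). By the family names given for mature and hairpin miRNAs, mir-10 also covers miR-99, miR-100 and miR-125. Its level therefore need not come from the miR-10 miRNAs alone. mir-196, the second measured family linked to the Hox clusters, had 82.3, 122 and 141 CPM in DP libraries and 119, 137 and 170 CPM in DR libraries (-0.24 ± 0.08, edgeR adjusted p = 0.0282). The call of mir-196 was lost without DP replicate 4 (-0.21, edgeR adjusted p = 0.0611) and without DR replicate 8 (-0.22, edgeR adjusted p = 0.0531).

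Of the 5 families of smooth muscle and mesenchymal cells, mir-143 and mir-145 fell, mir-199 rose, and mir-214 and mir-29 did not pass. mir-143 and mir-145 are neighbours in 1 primary transcript that marks contractile smooth muscle. mir-143 had 729, 848 and 1139 CPM in DP libraries and 924, 1175 and 1478 CPM in DR libraries (log2 fold change -0.44 ± 0.07, edgeR adjusted p = 2.32e-05). mir-145 had 17.5, 38.6 and 56.6 CPM in DP libraries, against 21.6, 57.9 and 79.4 CPM in DR libraries (-0.59 ± 0.20, edgeR adjusted p = 0.0443). The spread of mir-145 was much wider than that of mir-143, and its call was lost in 20 of the 29 fits that each left out 1 library (log2 fold changes from -0.66 to -0.54, adjusted p up to 0.0832 without DR replicate 2). mir-199, a family of fibroblasts, had 907, 1307 and 1637 CPM in DP libraries and 757, 1087 and 1236 CPM in DR libraries (0.26 ± 0.09, edgeR adjusted p = 0.0419). Its call was lost in 17 of these fits (0.23 to 0.29, adjusted p up to 0.0784 without DP replicate 7). mir-29, which restrains collagen genes, averaged 696 ± 124 CPM in DP mice and 708 ± 125 CPM in DR mice (SD; -0.02 ± 0.10, edgeR adjusted p = 0.932).

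The other called families were less abundant. mir-205, a family of epithelia, had 1.33, 1.93 and 3.90 CPM in DP libraries and 1.05, 1.29 and 1.86 CPM in DR libraries (log2 fold change 0.62 ± 0.15, edgeR adjusted p = 0.00363). All 15 DP libraries were above the DR median. The epithelial marker miRNAs miR-200c-3p and miR-205-5p were higher too, miR-141-3p did not pass, and the sum of the 3 ran from 18.4 to 54.1 CPM in DP and from 13.4 to 22.2 CPM in DR libraries, most of it miR-200c-3p. mir-203, placed above with the fat families though best known from the epidermis, was lower (-0.60, edgeR adjusted p = 1.05e-05). The other 4 measured families of the epithelial list, mir-8/mir-141/mir-200, mir-182, mir-183 and mir-96, did not pass, with log2 fold changes between -0.10 and 0.42. Neither did mir-449 of multiciliated cells (0.41 ± 0.42), of whose reads DP replicate 4 held 33.0%. Without that library its log2 fold change was -0.52 (edgeR adjusted p = 0.0854), and 13 of 15 DP libraries were below the DR median.

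mir-877 is a mirtron, a hairpin released by splicing from an intron of Abcf1. It had 11.5, 14.9 and 18.1 CPM in DP libraries and 9.22, 11.7 and 15.1 CPM in DR libraries (log2 fold change 0.33 ± 0.09, edgeR adjusted p = 0.0112). mir-7, a family of neuroendocrine cells, had 26.8, 65.3 and 91.4 CPM in DP libraries and 42.0, 48.0 and 71.2 CPM in DR libraries (0.33 ± 0.11, edgeR adjusted p = 0.0329). In 14 of 15 DP libraries mir-7 was above the DR median, while the 1 remaining library was the lowest of all 29, and the call was lost in 7 of the 29 fits that left out 1 library (0.29 to 0.39, adjusted p up to 0.0633 without DP replicate 1).

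On the side of the decreases, mir-338, encoded in an intron of Aatk, had 1.34, 2.93 and 4.26 CPM in DP libraries and 3.05, 4.25 and 6.65 CPM in DR libraries (log2 fold change -0.60 ± 0.15, edgeR adjusted p = 0.00473). mir-190, encoded in an intron of the talin gene Tln2, had 1.26, 6.90 and 10.4 CPM in DP libraries and 6.08, 9.69 and 16.4 CPM in DR libraries (-0.68 ± 0.20, edgeR adjusted p = 0.0147). In both families most DP libraries were below the DR median, 14 of 15 for mir-338 and 13 of 15 for mir-190. mir-124, abundant in neurons, had few reads in fat, with 0.459, 0.812 and 1.04 CPM in DP libraries, against 0.674, 1.03 and 1.65 CPM in DR libraries (-0.50 ± 0.14, edgeR adjusted p = 0.0135). mir-135 had the lowest log2 fold change of all called families, -0.83 ± 0.28 (edgeR adjusted p = 0.0366), at 0.109, 0.248 and 0.670 CPM in DP libraries and 0.198, 0.559 and 1.34 CPM in DR libraries. With a mean count of 10.8 it stood just above the filter, and its call was lost in 15 of the 29 fits (-0.94 to -0.68, adjusted p up to 0.0884 without DR replicate 5). Of the 7 measured neuronal families, mir-7 rose, mir-124 fell and the other 5 did not pass.

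Several abundant or well-known families did not pass the test. mir-451, the most counted family, had 3372, 8861 and 18795 CPM in DP libraries and 6807, 10820 and 15223 CPM in DR libraries. The DP range enclosed the DR range (log2 fold change -0.21 ± 0.16, edgeR adjusted p = 0.451). The other families of red blood cells, mir-486 (-0.20 ± 0.11, edgeR adjusted p = 0.264) and mir-144 (0.04 ± 0.19, edgeR adjusted p = 0.940), did not pass either.

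let-7, which restrains growth-promoting genes, had 1623, 2815 and 4347 CPM in DP libraries and 2976, 3426 and 4473 CPM in DR libraries, with 8 DP libraries below all DR libraries (log2 fold change -0.26 ± 0.12, edgeR adjusted p = 0.150). mir-23 and mir-24, which share primary transcripts with mir-27, differed by less than the spread between mice. mir-23 averaged 2855 ± 324 CPM in DP mice and 2838 ± 269 CPM in DR mice (SD; 0.01 ± 0.06, edgeR adjusted p = 0.962), and mir-24 averaged 2140 ± 409 CPM in DP mice and 2189 ± 492 CPM in DR mice (-0.03 ± 0.11, edgeR adjusted p = 0.917).

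None of the 5 measured families of the growth-linked clusters passed, with log2 fold changes between -0.07 for mir-16 and 0.15 for mir-17. The lymphocyte family mir-181 had a log2 fold change of 0.08 ± 0.06 (edgeR adjusted p = 0.417). Of the imprinted Dlk1-Dio3 region only mir-134 and mir-299 had a mean count above 10. mir-134 had a median of 0.670 CPM in DP and 0.561 CPM in DR libraries (0.47 ± 0.17, edgeR adjusted p = 0.0545), and mir-299 one of 6.10 CPM in DP and 5.01 CPM in DR libraries (0.25 ± 0.14, edgeR adjusted p = 0.266). No family of the rodent Sfmbt2 cluster reached the mean count of 10.

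Families of other tissues varied between single mice more than between groups. mir-133 of striated muscle had 16.3, 27.7 and 356 CPM in DP libraries and 27.1, 47.9 and 483 CPM in DR libraries (log2 fold change -0.65 ± 0.52, edgeR adjusted p = 0.472). The highest counts of mir-133 were 8112 reads in DP replicate 13 and 11959 in DR replicate 14. These libraries also had the highest counts of mir-1, the partner of mir-133 in muscle, with 316 reads in DP replicate 13 and 327 in DR replicate 14, and 6 of the 7 libraries with the most mir-133 reads were also among the 7 with the most mir-1 reads. The mature muscle miRNAs miR-1a-3p and miR-133a-3p together ranged from 8.40 to 175 CPM in DP and from 13.3 to 264 CPM in DR libraries. mir-122, the family of hepatocytes, had 1294 reads in DP replicate 2, against 554 in the next highest library and 19 in the lowest (0.20 ± 0.52, edgeR adjusted p = 0.876). Without DP replicate 2 its log2 fold change was -0.46 (edgeR adjusted p = 0.544), and the median was 3.62 CPM in DP and 5.58 CPM in DR libraries. mir-192/215 (-0.27 ± 0.23), mir-194 (-0.22 ± 0.10) and mir-375 (-0.37 ± 0.24) of liver, gut and pancreas did not pass either.

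The labels give each library a number, and whether it marks a batch is not stated. Below 200 stand 10 DP and 6 DR libraries, and from 200 upwards 5 DP and 8 DR libraries. Of the 24 called families, 23 kept their direction within both sets, mir-308 being the exception. Within the lower numbers, where 169 of all 1891 RNAs tested were higher and 131 lower, 18 families were called. Within the higher numbers only mir-221 (log2 fold change 1.02, edgeR adjusted p = 0.0439) and mir-132 (0.61, edgeR adjusted p = 0.0439) were, where 6 of all 1891 RNAs tested passed. mir-205 had a log2 fold change of 0.80 below and 0.20 from 200, and mir-145 one of -0.96 below and -0.17 from 200.

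The families were next set beside the mature and hairpin miRNAs of the same number. Such an RNA was tested for 78 of the 89 families. All 8 families called higher that had one also had a mature and a hairpin miRNA called higher. Of the 15 families called lower, 12 had both a mature and a hairpin miRNA called lower, and 13 had at least 1 of them. For mir-103/107 only the hairpin of miR-103-3p passed (-0.16, edgeR adjusted p = 0.0351). Its mature miR-103-3p (-0.05, edgeR adjusted p = 0.867) and miR-107-3p (0.94, edgeR adjusted p = 0.0783) did not. mir-338 and mir-124 had neither called. No called family had an RNA of its own number called in the opposite direction. Among the 55 families that were not called, 20 had at least 1 mature or hairpin miRNA that was. The entries can hold reads of the same molecules, so these counts are not a second measurement.

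The size of the difference was often close. For mir-221 the log2 fold change was 1.08 ± 0.11 in the family and 1.02 ± 0.14 in miR-221-3p, and for mir-193 it was -0.72 ± 0.12 in the family and -0.82 ± 0.16 in miR-193b-3p. For mir-146 the values lay further apart, with 0.14 ± 0.07 in the family (edgeR adjusted p = 0.201) and 0.45 ± 0.10 in miR-146a-5p (edgeR adjusted p = 0.00137). For mir-338 it was the family that passed, with -0.60 ± 0.15 against -0.24 ± 0.12 in miR-338-3p (edgeR adjusted p = 0.199). Likewise mir-378 did not pass as a family, while miR-378a-3p did (-0.43 ± 0.08, edgeR adjusted p = 0.000379). Whether family and mature miRNA differ in these cases was not tested.

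**Figure D4:**
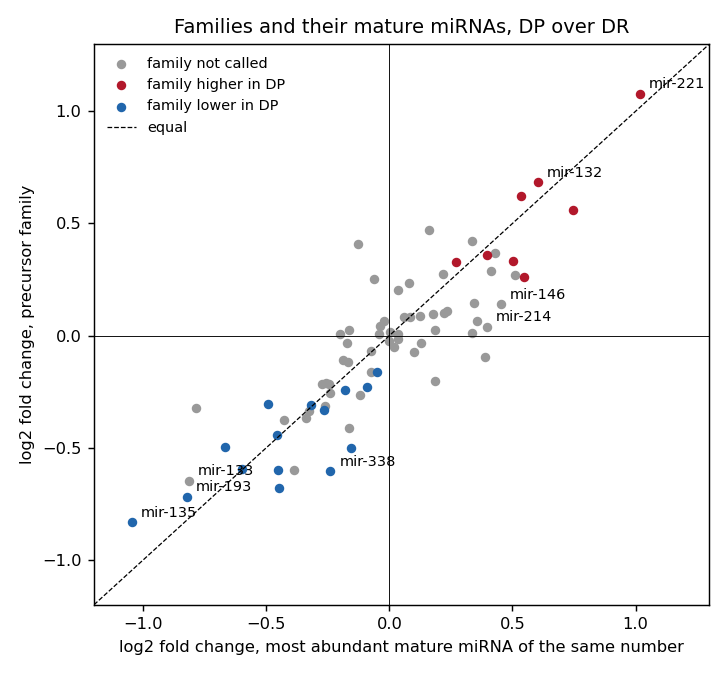
Log2 fold change, DP over DR, of each of 77 precursor families (vertical) against that of the most counted mature miRNA of the same number (horizontal), both from the same edgeR fit. In 63 of the 77 families both values have the same sign, mir-221 and mir-132 stand at the upper right, and mir-146 and mir-338 lie off the dashed line of equal values.

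How many reads a family collected per mature read differed widely. The median family had 24.5 reads per 100 reads of the mature miRNAs of its number, 20 families had under 10 and 10 families had more than 100. At the low end mir-22, whose mature miRNA is among the abundant ones of fat, had 0.00596 family reads per 100 mature reads. mir-214 followed with 0.809. At the high end mir-132 had 2386, so that the precursor entry held far more reads than the mature entries of that number. In the libraries, this ratio for mir-132 had a median of 2435 in DP and 2260 in DR mice, and for mir-221 of 391 in DP and 361 in DR mice. For mir-21 it was 33.8 in DP and 38.4 in DR mice, and for mir-146 27.6 in DP and 35.2 in DR mice.

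Rfam families can be wider than a number, and the ratios of reads above leave out mature reads of other numbers. The family names that the table gives for mature and hairpin miRNAs were looked at after the values had been seen. By these names mir-221 covers miR-222, mir-132 covers miR-212, and mir-10 covers miR-99, miR-100 and miR-125. No miR-125 entry passed, with -0.06 (edgeR adjusted p = 0.820) for mature miR-125a-5p and 0.01 (edgeR adjusted p = 0.993) for mature miR-125b-5p. With the match by family name, 8 of 8 families called higher and 13 of 15 called lower had an RNA called in the same direction. The mir-10 family then also had a member on the other side, since miR-99a-3p was higher in DP mice as mature (log2 fold change 0.36, edgeR adjusted p = 0.00203) and as hairpin (0.29, edgeR adjusted p = 0.000416), while miR-10b-5p (-0.49, edgeR adjusted p = 4.91e-05) and miR-100-5p (-0.31, edgeR adjusted p = 0.000387) were lower. let-7 was mixed in the same way, with the hairpin of let-7c-5p lower (-0.29, edgeR adjusted p = 0.00853) and let-7c-1-3p, the other arm of a let-7c hairpin, higher (0.26, edgeR adjusted p = 0.0112).

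A last set comprises 8 families that Rfam names for miRNAs of plants or invertebrates. MIR159, mir-166, MIR168, MIR396 and MIR398 are plant families, which act on transcription factors, Argonaute or copper proteins there, and mir-71, mir-276 and mir-308 are families of invertebrates. Their mean counts were low, between 10.5 and 45.3 reads per library. Only mir-308 was called, with a log2 fold change of 4.67 ± 1.34 (edgeR adjusted p = 0.0129), and this rests on 1 library. DP replicate 4 held 398 reads, the other 14 DP libraries held 0 or 1 read, and the DR libraries held between 0 and 4. Without DP replicate 4 the log2 fold change was -1.45 ± 0.69 (edgeR adjusted p = 0.181). The same library held 261 reads of mir-276, which was 70.5% of the reads of that family, and the highest count of mir-276 elsewhere was 24.

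The plant families were concentrated in other libraries. For mir-166, MIR159 and MIR396 the same 4 libraries had the highest counts, namely DP replicates 3 and 10 and DR replicates 7 and 8. mir-166 had 190 and 153 reads in DP replicates 3 and 10, and 275 and 233 in DR replicates 7 and 8, against a median of 17 and a highest count of 65 in the other 25 libraries. MIR159 had 125 and 94 reads in these DP and 177 and 187 in these DR libraries, against a median of 6. MIR396 had 61 and 45 reads in these DP and 64 and 91 in these DR libraries, against a median of 1. These 4 libraries, which come from both groups, held 64.8% of the reads of mir-166, 75.2% of MIR159 and 85.6% of MIR396. MIR168 and MIR398 did not follow this pattern, since MIR168 was highest in DR replicate 7 with 154 reads and MIR398 in DP replicate 7 with 73. None of the plant families passed the test.

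**Figure D5:**
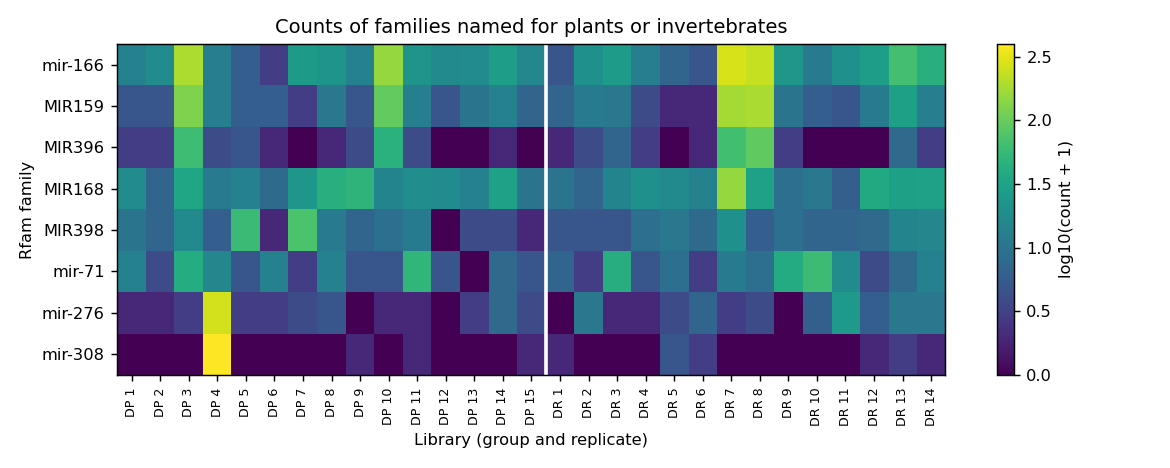
Raw counts, as log10(count + 1), of 8 families named for plants or invertebrates (rows) in each library (columns), DP left and DR right of the white line. mir-308 and mir-276 are bright in DP replicate 4 only, and mir-166, MIR159 and MIR396 in DP replicates 3 and 10 and DR replicates 7 and 8.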

How the data were processed

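Total RNA of gWAT was sequenced as small RNA libraries from 15 DP and 14 DR mice. The authors deposited raw read counts, whole numbers per annotated RNA with 1 column per mouse and no normalization. The submitters' processing notes name Bowtie2 and mm10. How reads were assigned to Rfam families, and how reads matching several entries were counted, is not given in the sources used here. The 4 entries that name no RNA (exon, intron, intergenic, repeat) took 8.39% of the counts in the median library and were left out. Depth was between 24266300 and 27662601 counts, and reads carry no molecular identifiers, so the precision does not cover amplification.

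The 1891 RNAs whose mean count was above 10 were compared after TMM scaling by edgeR 4.0.16 (quasi-likelihood F-test, no covariates) in R 4.3.3. The study names edgeR and a mean read count above 10 for its miRNAs, and the form of the test was chosen here. CPM are scaled by TMM. The SE given for a log2 fold change is that change's absolute value divided by the square root of its F statistic. The share of counts was compared by a two-sided permutation test with 100000 permutations (scipy 1.17.1). Families were matched to mature and hairpin miRNAs by number. Families were named for the text by rule: the 10 with the highest CPM, up to 10 highest and 10 lowest log2 fold changes among those called, up to 4 of each list by smallest p, and those next to the limit of 10. The remaining called families and the 8 families named for other organisms were added after the values were seen. The members and lists were chosen with earlier results of these data known. Alternatives were DESeq2 1.42.0, limma-voom (limma 3.58.1), other scalings, filters and sets of RNAs, library number, and each library left out in turn. Of these steps, only the main edgeR fit was tested on simulated data.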

Additional observations from a re-analysis of the deposited data

How the results depend on the processing

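No paired analysis was possible because the replicate numbers are in accession order and pair no mice. The number of called families (24, with 9 higher and 15 lower in DP mice) was 22 with library totals, 24 with median-of-ratios size factors, 23 by DESeq2, 19 by limma-voom and 27 with precursor families alone, where 17 were higher. It was 16 with no filter on low counts, where 9 were lower. Over all 1891 RNAs, library totals gave 227 higher and 106 lower, and median-of-ratios size factors 169 and 139. DESeq2 gave 184 and 156, and limma-voom 163 and 143. With no filter, 156 of 5328 RNAs were higher and 106 lower. With libraries numbered below 200 only, 5 families were higher and 13 lower, beside 169 higher and 131 lower of all 1891 RNAs. With libraries from 200 upwards only, 2 families were called, 2 higher and 0 lower. By edgeR's test the 0 lower calls there stand beside 1 lower call among all 1891 RNAs. With 1 library left out in turn, between 20 and 25 families were called, 7 to 10 higher and 12 to 15 lower. Over all 1891 RNAs these fits gave 153 to 175 higher and 122 to 157 lower. All 24 called families were also called with median-of-ratios size factors, and 23 of them by DESeq2. mir-308 changed sign without DP replicate 4 (log2 fold change -1.45, while leaving out other libraries gave values up to 5.13) and in the libraries from 200 upwards (-0.28). mir-30, mir-103/107, mir-196, mir-145 and mir-135 lost their call with library totals and with precursor families alone, and with no filter they lost it together with mir-199, mir-7 and mir-124. By limma-voom the calls of mir-199, mir-7, mir-145, mir-135 and mir-308 were lost. With library totals mir-27, mir-146 and mir-134 passed. The difference in the share of counts stayed within the spread between mice in every alternative tried, from -0.15 to 0.09 percentage points. Families with mean counts near 10 are limited by counting, and 4 of the 24 called families had a mean of 50 or less.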
